A study of Mus musculus with 11 samples.

Results

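The VEGF and angiopoietin system comprised 10 genes, selected by their symbols from the 27687 genes of the count table. They were the VEGF ligands Vegfa, Vegfb, Vegfc and Pgf, the VEGF receptors Flt1, Kdr and Flt4, the angiopoietins Angpt1 and Angpt2, and the angiopoietin receptor Tek. Sequencing of total RNA gave their levels in 11 high-grade gliomas of mice, of which 9 carried a prolonged knockdown of Ezh2, the enzyme that methylates lysine 27 of histone H3, and 2 were controls without it. All 11 tumours grew from glioma initiating cells injected into the brains of NOD-SCID mice, a strain that lacks functional T and B cells. They derived from subventricular zone neural stem cells of mice 7 days old that carried several conditional alleles, p53, Ink4a/Arf and LucR among them. Lentiviral CMV-Cre had recombined these alleles in culture. Both groups then received the same inducible hairpin, FH1-tUTG-shEzh2, which responds to doxycycline, and were sorted for GFP, so that the knockdown rested on 1 hairpin and the controls carried it too. The labels give every tumour drinking water with 2 mg/ml doxycycline and 1% sucrose, while the design text says that mice were treated with or without the drug. Whether the controls drank it was therefore not settled. If they did not, an effect of doxycycline and one of the knockdown cannot be told apart.

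VEGF ligands are secreted by hypoxic tumour cells and by stromal cells and act on receptor tyrosine kinases of the endothelium. Kdr carries most of the growth and permeability signal of Vegfa, whereas Flt1 binds Vegfa, Vegfb and Pgf tightly, signals weakly and is also made as a soluble form that traps its ligands. Angpt1 from perivascular cells activates Tek and stabilises vessels, and Angpt2, stored and released by activated endothelium, competes with it. In high-grade glioma, Vegfa is a classical product of the hypoxic tumour, and abnormal, leaky vessels are a hallmark.

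The promoters of 3 endothelial receptors are shown, those of Flt1, which fell under knockdown, and of Kdr and Tek, whose differences did not pass the test. A relation between these sequences and the levels was not tested. Each run holds the 250 bases before the RefSeq start on GRCm38.p6, written 5′ to 3′ along the gene's strand, with CpG dinucleotides in capitals. Flt1 lies at chr5:147726012-147726261 on the minus strand, Kdr at chr5:75978456-75978705 on the minus strand and Tek at chr4:94739039-94739288 on the plus strand.
Flt1: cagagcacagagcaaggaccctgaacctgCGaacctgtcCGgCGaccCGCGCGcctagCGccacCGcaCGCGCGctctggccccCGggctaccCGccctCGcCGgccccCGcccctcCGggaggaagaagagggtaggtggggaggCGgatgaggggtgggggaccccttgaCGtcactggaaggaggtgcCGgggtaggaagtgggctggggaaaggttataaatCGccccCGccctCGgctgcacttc
Kdr: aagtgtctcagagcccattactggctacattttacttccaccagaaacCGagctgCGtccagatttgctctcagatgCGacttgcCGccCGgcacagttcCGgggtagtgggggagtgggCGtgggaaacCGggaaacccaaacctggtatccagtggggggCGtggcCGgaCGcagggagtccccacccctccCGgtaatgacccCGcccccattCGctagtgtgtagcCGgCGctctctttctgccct
Tek: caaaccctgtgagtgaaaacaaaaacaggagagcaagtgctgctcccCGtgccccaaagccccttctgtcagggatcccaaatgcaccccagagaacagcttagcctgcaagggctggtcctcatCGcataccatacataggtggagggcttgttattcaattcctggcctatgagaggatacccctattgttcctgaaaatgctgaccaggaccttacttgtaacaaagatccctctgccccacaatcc
The Flt1 window held 23 CpG dinucleotides and 70.4% G and C, the Kdr window 16 and 61.6%, and the Tek window 2 and 51.2%, beside a median of 6 CpG and 52.4% over 32851 mouse promoter windows of the same length. Searched on both strands, with matches to different motifs allowed to overlap, GGGCGG, a letter run bound by Sp-family factors, occurred 3 times before Flt1, 2 times before Kdr and 0 times before Tek. It was present in 32.7% of all windows. GCGTG, a core of the hypoxia response element, occurred 1, 2 and 0 times and was present in 28.2% of windows, while its variant ACGTG, present in 16.6%, occurred in none of these 3. TATAAA was found 1 time, before Flt1, and in 12.4% of all windows. Of the 10 genes, 8 were in that table, all but Angpt1 and Angpt2.

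The libraries held 11209233 to 18638382 counts, and a count of 3 corresponded to 0.162 to 0.273 CPM, the counts scaled to library size. Ezh2 fell from 45.3 and 52.7 CPM in the controls to 7.27 to 30.4 CPM in the knockdown tumours (log2 fold change -1.59 ± 0.44 standard error, SE; edgeR's quasi-likelihood test with Benjamini-Hochberg adjustment, adjusted p = 0.023). All 10 listed markers of glioma and neural stem cells were detected. Their summed level was 6941 to 7980 CPM in the controls and 2785 to 4190 CPM under knockdown. Of the 10 markers 5, Nes, Sox2, Olig2, Vim and Cd44, fell, beside 13.0% of all genes tested. The median log2 fold change of the 10 was -1.13, and it was -1.11 without control 1 and -0.60 without control 2. Xist, the RNA of the inactive X chromosome in female cells, exceeded 5 CPM in 7 libraries, 5 knockdown and both controls, and lay between 0.108 and 1.1 CPM in knockdown tumours 1, 7, 8 and 9. In the 7 libraries alone Flt1 and Angpt2 kept their calls. No label states that the tumours arose from independent cell preparations or injections, and the p-values here thus cover the spread among these samples, part of which may be technical.

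Vegfa was the member with the highest level in both groups. By mean level per kilobase Flt1 had rank 2 in the controls and rank 5 under knockdown. Its step to the next member lay within the spread in both groups. Control 1 raised its control mean, with 312.6 CPM beside 124.8 CPM in control 2. Compared per kilobase of exon, Vegfa reached 123.8 ± 72.9 CPM per kb in the controls (SD, n = 2) and 59.7 ± 31.4 in the knockdown tumours (SD, n = 9). In the controls Flt1 came next with 16.2 ± 9.83 CPM per kb, followed by Vegfb at 14.8 and Angpt2 at 11.4 ± 4.96, levels that did not differ beyond their spread. Pgf followed at 7.33 ± 1.07 CPM per kb, and Vegfc, Kdr, Tek, Angpt1 and Flt4 lay between 0.672 and 2.06. Among these neighbours, the steps from Vegfa to Flt1 and from Pgf to Vegfc exceeded the spread. Under knockdown the order per kb was Vegfa, Vegfb at 13.5 ± 2.58, Pgf at 7.25 ± 4.84, Angpt2 at 3.98 ± 1.89, Flt1 at 3.04 ± 0.51, Kdr at 2.82 ± 1.10, Tek at 1.81 ± 0.64, Flt4 at 1.14 ± 0.33, Angpt1 at 1.06 ± 0.74 and Vegfc at 0.649 ± 0.44. Here the step from Vegfa to Vegfb alone exceeded the spread between neighbours.

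**Figure D1:**
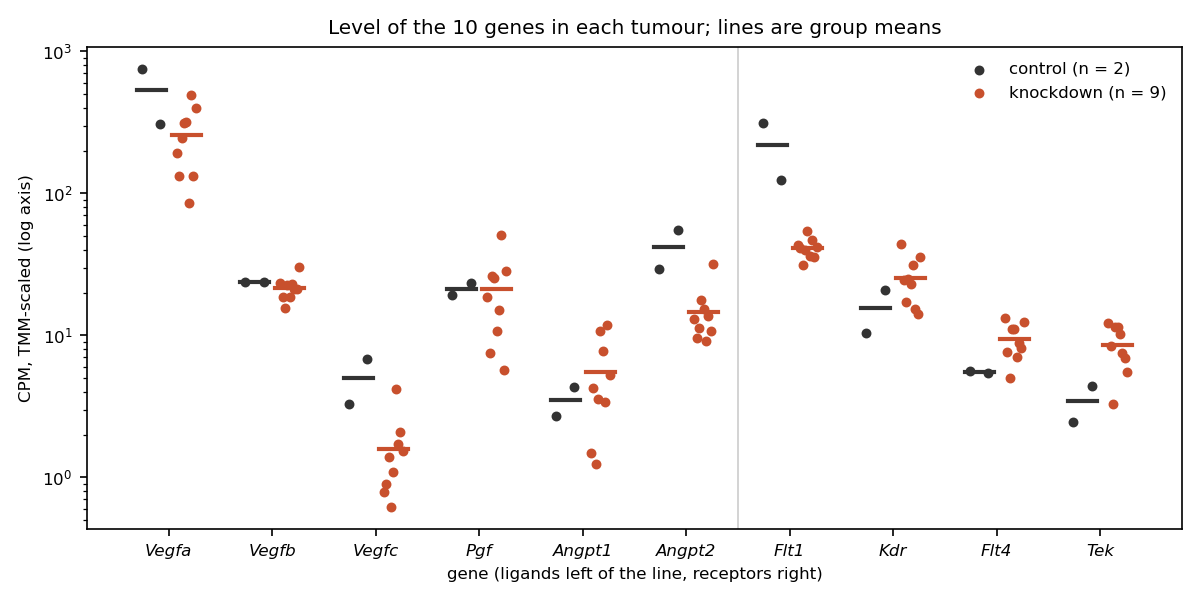
Level of each of the 10 genes in CPM on a log axis, one column per gene, with every library as a point and each group's mean as a line. All 9 knockdown points of Flt1 lie below both controls, and for the other 9 genes the groups overlap.

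Over all 10 genes, 3 fell under knockdown, Flt1, Angpt2 and Vegfc, none rose, and 7 did not pass the test at an adjusted p of 0.05. At an unadjusted p under 0.05, 2 were higher (Flt4 and Tek) and 3 lower. DESeq2 called 1 gene higher, Tek, and limma-voom called 0 higher. These counts stand beside a background of 23.3% of the 16241 genes tested, 10.3% higher and 13.0% lower, so that a share of 3 in 10 was close to that of all genes. The median log2 fold change of the 10 genes was -0.07, beside 0.07 over all genes tested. In 1 gene, Flt1, every knockdown library was below both controls, which held for 13.8% of all genes, and in 0 of the 10 was every knockdown library above both, which held for 13.3%.

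**Figure D2:**
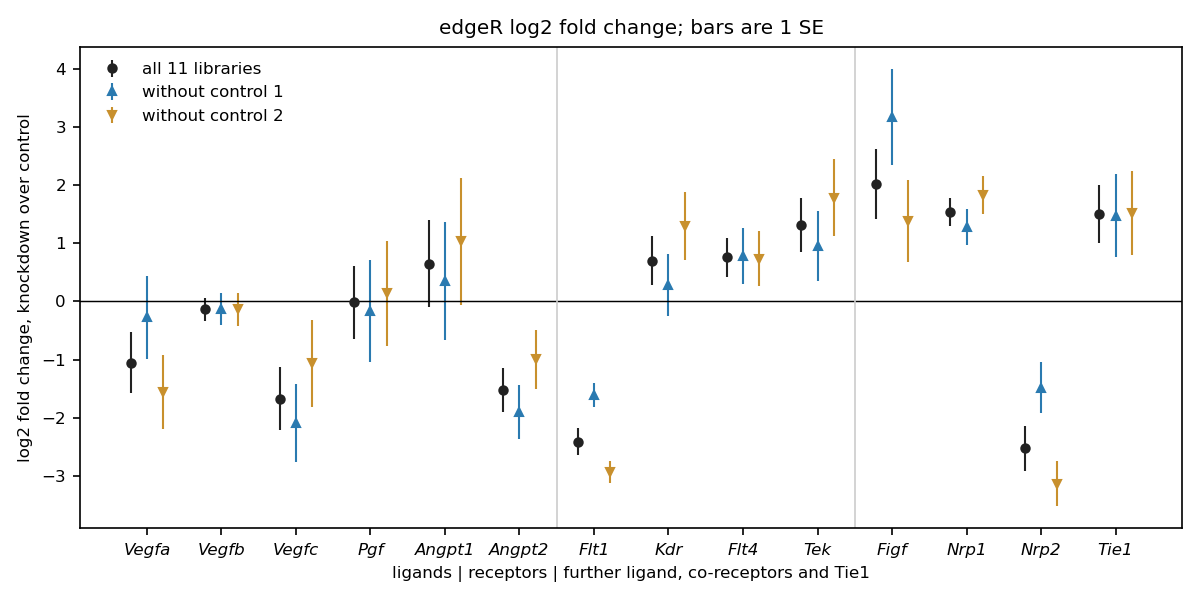
Log2 fold change (edgeR), knockdown over control, of the 10 genes and of Figf, Nrp1, Nrp2 and Tie1, with all 11 libraries and without either control; bars are 1 SE. With all 11 libraries Flt1 lies farthest from 0 among the 10 genes, at -2.41, and without control 1 it is at -1.60, nearer to 0 than Vegfc at -2.09 and Angpt2 at -1.91.

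Flt1, the high-affinity VEGF receptor (ENSMUSG00000029648, mm9 chromosome 5, 148373180 to 148537587), had the largest fold among the members with all 11 libraries, though not without control 1, where Vegfc (-2.09) and Angpt2 (-1.91) exceeded its -1.60, nor in the 4 libraries numbered 1 and 2, where Vegfc did. Controls 1 and 2 had 312.6 and 124.8 CPM of it, and its lowest, median and highest levels in the 9 knockdown tumours were 31.5, 40.9 and 54.6 CPM. The groups did not overlap, the controls differed from each other 2.50-fold, and the knockdown tumours had the smallest relative spread of any member, a coefficient of variation of 16.6%. Flt1 fell 5.32-fold (log2 fold change -2.41 ± 0.23 SE, edgeR adjusted p = 9.5e-05). Without control 1 its change had an adjusted p of 0.0018, and without control 2 it was -2.93 (adjusted p = 3.7e-05). Counts per gene do not separate the membrane-bound from the soluble form of Flt1. In RNA of whole tumours, fewer cells of a type and less RNA per cell cannot be told apart.

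Kdr, the main signalling receptor of Vegfa (ENSMUSG00000062960, mm9 chromosome 5, 76328852 to 76374483), did not pass the test. Its level was 10.3 and 20.9 CPM in the controls and 14.1, 24.6 and 43.6 CPM as lowest, median and highest of the knockdown tumours. Of the 9 knockdown tumours, 6 were above both controls and 3 between them (log2 fold change 0.70 ± 0.43 SE, edgeR adjusted p = 0.25). It was 0.28 without control 1 and 1.30 without control 2. Flt4, the receptor of Vegfc and VEGF-D on lymphatic and sprouting endothelium (ENSMUSG00000020357, mm9 chromosome 11, 49422765 to 49466241), had 5.62 and 5.45 CPM in the controls and 4.97, 8.79 and 13.3 CPM in the knockdown tumours, 8 of which were above both controls. Its difference did not pass either (0.76 ± 0.34 SE, adjusted p = 0.12), except without knockdown tumour 3 (0.84, adjusted p = 0.047).

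Among the ligands, Vegfa (ENSMUSG00000023951, mm9 chromosome 17, 46153942 to 46169326) varied most in absolute level. Controls 1 and 2 had 751.5 and 309.5 CPM, against 85.4, 246.6 and 489.1 CPM as lowest, median and highest of the knockdown tumours. In 5 knockdown tumours it was below both controls and in 4 it lay between them. The log2 fold change was -1.05 ± 0.52 SE and did not pass (edgeR adjusted p = 0.16). It was -0.28 (adjusted p = 0.86) without control 1 and -1.56 (adjusted p = 0.14) without control 2, and Vegfa passed when knockdown tumours 7 and 9, 2 of the tumours with high Vegfa, were left out (-1.42, adjusted p = 0.037).

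Vegfc, a ligand of Flt4 and Kdr that drives lymphatic growth (ENSMUSG00000031520, mm9 chromosome 8, 55162886 to 55271808), was the scarcest member per kb under knockdown, with 9 to 46 counts per library there and 43 and 108 in the controls. Its level was 3.31 and 6.77 CPM in the controls and 0.617, 1.38 and 4.18 CPM in the knockdown tumours, where tumour 6 alone lay between the controls and the other 8 were below both. Vegfc fell 3.18-fold (log2 fold change -1.67 ± 0.54 SE, edgeR adjusted p = 0.042). That call sat close to the threshold: it was lost without control 1 (-2.09, adjusted p = 0.086), without control 2 (-1.06, adjusted p = 0.39), without knockdown tumour 1, 2, 3, 4, 5 or 9, without tumours 7 and 9 together (adjusted p = 0.054), with no filter on low counts (adjusted p = 0.055) and in the 7 libraries with Xist (adjusted p = 0.10).

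The other VEGF ligands, which bind Flt1 but not Kdr, did not pass. Vegfb (ENSMUSG00000024962, mm9 chromosome 19, 7056963 to 7062141) had 23.7 CPM in each control and 15.6, 21.3 and 30.4 CPM in the knockdown tumours, 8 of them slightly below both controls (log2 fold change -0.13 ± 0.20 SE, edgeR adjusted p = 0.66). Pgf, placental growth factor (ENSMUSG00000004791, mm9 chromosome 12, 86507589 to 86518246), had 19.1 and 23.5 CPM in the controls and 5.71, 18.7 and 51.2 CPM in the knockdown tumours, 4 above and 5 below both controls (-0.02 ± 0.63 SE, adjusted p = 0.99). Its direction changed with the scaling of the libraries and with the tumour left out.

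Of the angiopoietins, the antagonist Angpt2 fell and the agonist Angpt1 did not pass. Angpt2 (ENSMUSG00000031465, mm9 chromosome 8, 18690263 to 18741562) had 29.2 and 55.1 CPM in the controls and 9.09, 12.9 and 31.8 CPM in the knockdown tumours. Tumour 9 lay between the controls and the other 8 were below both. The fall was 2.87-fold (log2 fold change -1.52 ± 0.38 SE, edgeR adjusted p = 0.015), was -1.91 (adjusted p = 0.031) without control 1 and lost its call without control 2 (-0.99, adjusted p = 0.23). Angpt2 lies inside Mcph1, which had 18.4 and 21.2 CPM in the controls and 22.8 ± 3.43 CPM under knockdown (SD, n = 9; log2 fold change 0.20, adjusted p = 0.45), and reads of overlapping genes cannot be told apart where strand was not used.

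Angpt1 (ENSMUSG00000022309, mm9 chromosome 15, 42256273 to 42508523) had 2.69 and 4.32 CPM in the controls. In the knockdown tumours its lowest, median and highest levels were 1.24, 4.28 and 11.9 CPM, with 4 tumours above both controls, 2 below and 3 between, and a coefficient of variation of 69.5%, the largest of the 10 genes. The log2 fold change was 0.65 ± 0.75 SE (edgeR adjusted p = 0.56). Tek, the receptor of both angiopoietins (ENSMUSG00000006386, mm9 chromosome 4, 94405980 to 94541667), had 2.46 and 4.38 CPM in the controls and 3.31, 8.39 and 12.3 CPM in the knockdown tumours, where tumour 3 lay between the controls and the other 8 were above both. Its difference missed the threshold narrowly (1.31 ± 0.46 SE, 2.48-fold, adjusted p = 0.059). DESeq2 called Tek higher (1.28, adjusted p = 0.018), and the edgeR test did so without knockdown tumour 3 (adjusted p = 0.018), without tumour 9 (adjusted p = 0.047) or without tumours 7 and 9 (adjusted p = 0.049).

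Ratios inside a library do not depend on how libraries are scaled. Per kilobase, Flt1 exceeded Kdr 20.3-fold in control 1 and 3.99-fold in control 2, whereas the ratio lay between 0.660 and 2.07 in the knockdown tumours, with no overlap. On the scale of log2(CPM + 0.5) the ratio of Flt1 to Kdr was lower by 2.95 under knockdown in an exact two-sided permutation test (difference -2.95, p = 0.018, the smallest that 55 label assignments allow). Adjusted over the 7 contrasts tested, that p was 0.064, so that 0 of 7 passed, 2 having an unadjusted p under 0.05. The difference was -1.79 without control 1 and -4.10 without control 2. The ratio of Angpt2 to Angpt1 per kb was 15.3 and 17.97 in the controls and 1.27 to 12.9 in the knockdown tumours, again without overlap (log2 difference -1.85, exact permutation p = 0.055, adjusted p = 0.13). Vegfa relative to Kdr differed by -1.79 (exact permutation p = 0.073, adjusted p = 0.13), by -0.66 without control 1 and by -2.92 without control 2.

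**Figure D3:**
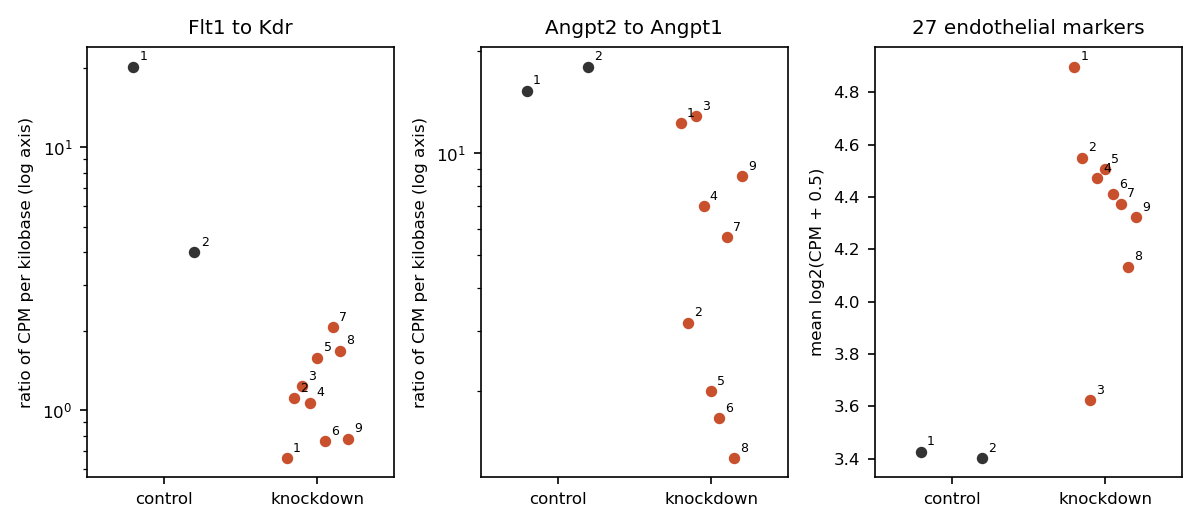
Ratio of Flt1 to Kdr and of Angpt2 to Angpt1 in CPM per kb (log axes), and the mean log2(CPM + 0.5) of 27 endothelial markers, with each library as a numbered point. All 9 knockdown points lie below both controls in the 2 ratios and above both controls in the marker mean, where tumour 3 at 3.62 is nearest to them.

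Each of the 4 receptors was also set against the mean log2 level of 27 endothelial markers in the same library; differences between receptors on this scale were not tested. That mean was 3.43 and 3.40 in the controls and 3.62 to 4.90 in the knockdown tumours. Between the groups, the markers as a whole were thus higher where Flt1 was lower. Within the 9 knockdown tumours alone, Pearson's r was 0.64 (exact permutation p = 0.068) between Flt1 and this marker mean. Relative to it, Flt1 was lower under knockdown by a log2 difference of -3.22 (exact permutation p = 0.018, adjusted p = 0.064), the same difference for Kdr was -0.27 (p = 0.49), for Flt4 -0.29 (p = 0.20) and for Tek 0.21 (p = 0.45), all from exact permutation tests. For Flt1 it was -2.57 without control 1 and -3.87 without control 2. The sign for Tek turned without control 1 (-0.16), and that for Kdr without control 2 (0.23).

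Endothelial marker genes rose more often than they fell. Of 27 tested, 11 rose and 2 fell, beside 10.3% and 13.0% of all genes. The median log2 fold change of the 27 was 1.06, beside 0.07 over all genes. Their summed level was 420.4 to 474.6 CPM in the controls and 437.9 to 1050 CPM under knockdown, and 0 of them were at 0 in all libraries. Icam2, an adhesion molecule of endothelial junctions, rose from 3.08 and 3.57 CPM to 26.6 ± 8.16 CPM (SD, n = 9; log2 fold change 3.00, edgeR adjusted p = 0.00058), and Sox18, an endothelial transcription factor, rose by 2.14 (adjusted p = 0.0080). The junction genes Pecam1 (0.52, adjusted p = 0.13) and Cdh5 (0.66, adjusted p = 0.19) did not pass. Podxl (-1.01) and the lipid transporter Mfsd2a (-0.87) fell. With either control left out fewer genes passed, in this list as over all genes. The median of the 27 was then 1.00 without control 1 and 1.20 without control 2. In the 7 libraries with Xist 12 were higher and 0 lower.

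**Figure D4:**
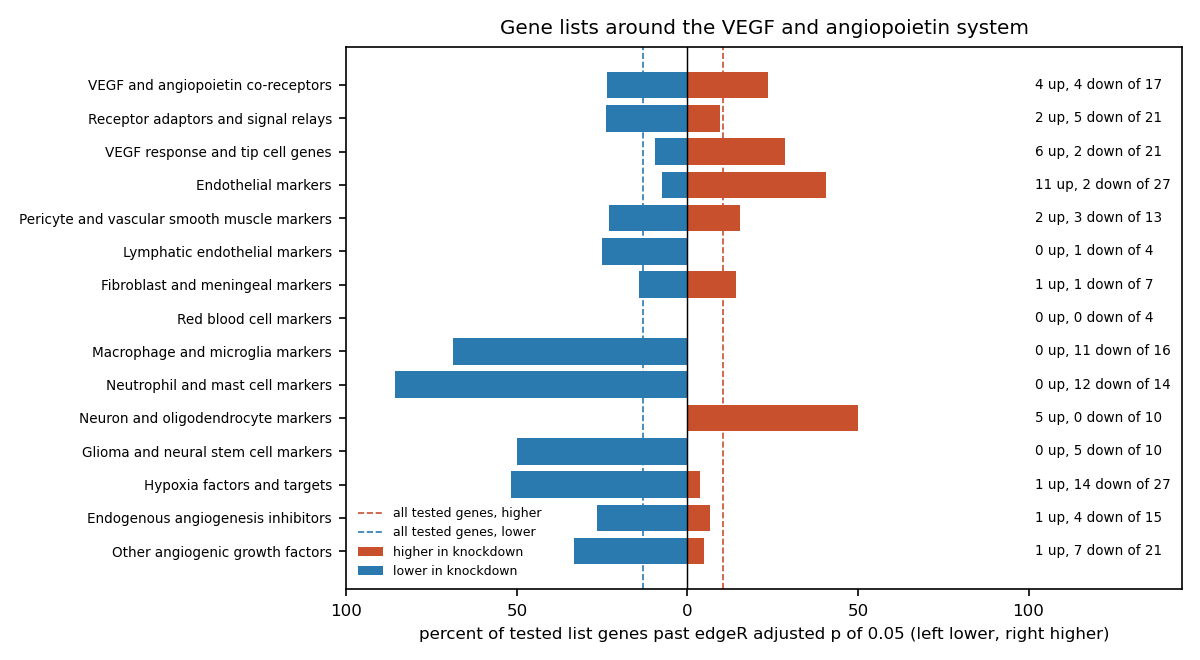
Share of each gene list, in percent of the genes tested, that rose (to the right) or fell (to the left) under knockdown, with the counts at the right and dashed lines at the share of all tested genes, 10.3% higher and 13.0% lower. Endothelial markers lean to higher levels, with 11 of 27 higher and 2 lower, and hypoxia genes to lower ones, with 1 of 27 higher and 14 lower.

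Markers of the other cells that a tumour holds also moved, beside shares of 10.3% higher and 13.0% lower over all genes. Flt1 is made by macrophages as well as by endothelium, and 11 of 16 macrophage and microglia markers fell and 0 rose, among them the receptor Msr1 (-1.57) and the integrin Itgam (-1.53). Their summed level was 1398 and 2807 CPM in the controls and 635.7 to 1321 CPM under knockdown. Between the 2 controls Flt1 had the opposite order, with 312.6 CPM in control 1 and 124.8 CPM in control 2. Of these 16 genes, 10 fell without control 1 and 2 without control 2. Neutrophil and mast cell markers fell in 12 of 14 genes, with summed levels of 406.9 and 324.3 CPM in the controls and 20.1 to 89.0 CPM under knockdown. Neuron and oligodendrocyte markers rose in 5 of 10 genes, among them Mbp, Rbfox3, Snap25 and Mobp, with summed levels of 75.1 and 45.4 CPM in the controls and 238.0 to 457.8 CPM under knockdown. Of these 10 genes, 2 rose without control 1 and 2 without control 2. The part of these cell types in the levels of Flt1, Vegfc and Angpt2 was not tested.

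Perivascular and lymphatic genes did not move in 1 direction. Of 13 markers of pericytes and vascular smooth muscle 2 rose, the growth factor receptor Pdgfrb (2.22, adjusted p = 0.0082) and the channel subunit Abcc9 (1.32), and 3 fell, Anpep (-1.58), Tagln (-1.59) and, named after its value was seen, Cnn1. These counts were near the shares of all genes (10.3% higher and 13.0% lower), and fewer markers passed without either control. Their median log2 fold change was 0.57, and it was 0.50 without control 1 and 0.84 without control 2. The summed level of the 13 markers was 527.1 and 618.7 CPM in the controls and 500.4 to 1469 CPM under knockdown. Of 4 lymphatic markers tested 1 fell, Reln (-3.61), which is also a neuronal gene, and 0 rose. In 4 red blood cell markers 0 passed the edgeR test and 1 had an unadjusted p under 0.05, Hbb-b1 (1.47, adjusted p = 0.13). Fibroblast markers were split, with Pdgfra higher (1.21) and Col1a2 lower (-4.18) among 7, and the call for Pdgfra was lost without either control. The median log2 fold change of the 7 was 0.05, and it was 0.01 without control 1 and 0.09 without control 2.

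The co-receptors and further ligands of the system changed in both directions, 4 of 17 higher and 4 lower, beside 10.3% and 13.0% of all genes. Without control 1 these counts were 2 and 1, and without control 2 they were 1 and 4. The neuropilins, which present VEGF to its receptors, went opposite ways. Nrp1, which binds Vegfa beside Kdr, rose from 118.0 and 173.2 CPM to 422.0 ± 80.2 CPM (SD, n = 9; log2 fold change 1.53 ± 0.24 SE, edgeR adjusted p = 0.0014). Nrp2, the partner of Flt4 for Vegfc, fell from 741.4 and 236.2 CPM to 84.7 ± 30.0 CPM (-2.53 ± 0.38 SE, adjusted p = 0.0011), and its call was lost without control 1 (-1.48, adjusted p = 0.071). Figf, which encodes VEGF-D, rose from 20.2 and 5.83 CPM to 52.8 ± 20.0 CPM (2.02 ± 0.61 SE, adjusted p = 0.032), so that the other ligand of Flt4 moved against Vegfc. The call for Figf was lost without control 2 (1.38, adjusted p = 0.23).

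Partners of the angiopoietin branch also differed. Tie1, the orphan receptor that pairs with Tek, rose from 10.8 and 11.1 CPM to 30.9 ± 12.7 CPM (1.50 ± 0.50 SE, edgeR adjusted p = 0.048), a call that was lost without control 1 (1.48, adjusted p = 0.24) or control 2 (1.52, adjusted p = 0.20). Ptprb, the phosphatase that quiets Tek, had 16.1 and 21.2 CPM in the controls and 23.9 ± 8.60 CPM under knockdown and did not pass (0.36, adjusted p = 0.48). Svep1, a matrix protein that acts with Tie1, rose (2.19, adjusted p = 0.024), but not without control 1 (adjusted p = 0.19) or control 2 (adjusted p = 0.12). The integrin subunit Itgav fell (-1.43, adjusted p = 0.00060), as did Angptl2 and Gpc1, which are named after their values were seen.

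Downstream, 21 adaptors and relays of the receptors held 2 that rose and 5 that fell, beside 10.3% and 13.0% of all genes. Without control 1 these counts were 1 and 1, without control 2 they were 1 and 2, and without knockdown tumour 1, 2 or 4 they were 2 and 2. The adaptors Nck1 (1.47) and Nck2 (0.80) rose, and the scaffold Iqgap1 (-0.97) and the phosphatase Ptpn6 (-0.96) fell, as did Prkca, Prkcb and Tnip2, named after their values were seen. Of 21 genes known as VEGF responses or tip cell genes, 6 rose and 2 fell, with a median of 0.69. The basement membrane genes Nid2 (1.53, adjusted p = 0.0018) and Col4a2 (1.48, adjusted p = 0.0069) rose, and the chemokine receptor Cxcr4 (-1.79) and the Notch target Hey1 (-1.19) fell. For these responses the median was 0.66 without control 1 and 0.96 without control 2, and fewer passed in either case.

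Vegfa is a target of the hypoxia factors, and genes of that response were lower under knockdown more often than higher. Of 27 genes 14 fell and 1 rose, beside 13.0% and 10.3% of all genes, with a median of -1.16. P4ha2, a collagen hydroxylase, fell by 2.04 (edgeR adjusted p = 0.0012) and the glycolytic Pgk1 fell by 1.53 (adjusted p = 0.0048), whereas Hif1an, which hydroxylates the hypoxia factors, rose by 0.50. The factors themselves did not pass: Hif1a had a log2 fold change of -0.61 (adjusted p = 0.13) and Epas1 of 0.10 (adjusted p = 0.86), and the oxygen sensor component Vhl had 0.29 (adjusted p = 0.15). Summed, the list had 8114 and 4045 CPM in the controls and 1997 to 4886 CPM under knockdown. Control 1 was thus the highest library in both Vegfa and this list. The median of the list was -0.57 without control 1 and -1.46 without control 2, and fewer genes passed in either case.

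Within the 9 knockdown tumours 30 relations were computed, between the 10 genes and the mean log2 level of the endothelial markers, that of the hypoxia genes and Ezh2. After adjustment 0 passed, and 3 had an unadjusted p under 0.05. Tek had the highest r, with the endothelial markers (Pearson's r = 0.88, exact permutation p = 0.0017, adjusted p = 0.050, just above the threshold; Spearman's rho = 0.88, exact permutation p = 0.0031), and r was 0.62 without tumours 1 and 3, the farthest from the median. Next came Vegfa with the hypoxia genes (r = 0.81, exact permutation p = 0.0077, adjusted p = 0.12; rho = 0.87, exact permutation p = 0.0045), and r was 0.71 without tumours 2 and 7. For Flt4 with the endothelial markers r was 0.77 (exact permutation p = 0.018, adjusted p = 0.18; rho = 0.45, exact permutation p = 0.23), and it rested on tumours 1 and 3, without which it was 0.08. Kdr and Flt1 each had r = 0.64 with the same markers, with exact permutation p of 0.053 and 0.068. Between Ezh2 and the 10 genes r lay between -0.52 and 0.46, and without tumours 3 and 9, the farthest from the Ezh2 median, between -0.48 and 0.84. Among these, r for Tek turned from -0.49 to 0.75 and that for Kdr went from 0.46 to 0.84. The 5 knockdown tumours with Xist and the 4 without it are too few for a value within each.

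**Figure D5:**
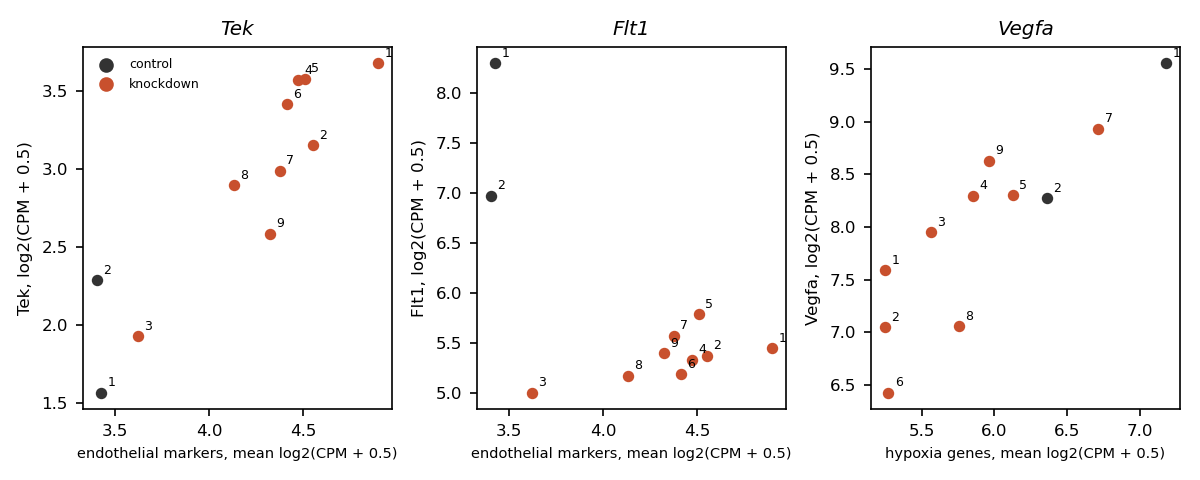
Levels of Tek and Flt1 against the mean of 27 endothelial markers, and of Vegfa against the mean of 27 hypoxia genes, all as log2(CPM + 0.5), with each library as a numbered point. Among the 9 knockdown tumours r is 0.88 for Tek, 0.64 for Flt1 and 0.81 for Vegfa, and the 2 controls lie far above the knockdown tumours in Flt1 at lower marker levels.

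Leaving out Vegfc, whose level was too low, the genes most like each of the other 9 members across the 9 knockdown tumours were ranked by Pearson's r of log2(CPM + 0.5) among 11405 genes, as a description. Among the 5 genes most like Flt1 were Mcl1 (r = 0.88), Olfml2b, Rabep2 and Zfp36, none of them in the endothelial list. Kdr was most like Irf9 and Myo1f, followed by the endothelial marker Robo4 (r = 0.93), Sf3b2 and Nckipsd. For Tek the leading genes were Hcfc2 (r = 0.96), Dctn5, Rnf182, the laminin chain Lama2 and Gimap6, and for Flt4 they were Lrp1 (r = 0.92), Ppp1r16b, Sh2d3c, Fry and Eml3. None of these was in the endothelial list either. Vegfa was most like Tet2 (r = 0.96), Rhob, Rgs11, Slc23a2 and Cpm. Among the genes most like Angpt2 were Pnpla6 (r = 0.95) and Dnajc1 (r = 0.95). Angpt1 was led by Nxph3 (r = 0.95), Vegfb by Zfp768 (r = 0.97) and Pgf by Pcdha5 (r = 0.94).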

How the data were processed

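RNA was sequenced from 11 mouse tumours. The deposited table holds whole-number counts per Ensembl gene on mm9, made by the authors with TopHat 1.4.0 and HTSeq, per the submitters' processing notes, while settings, strand use and read filters are not stated in what was used here. Overlapping genes on opposite strands may therefore share reads. Groups and numbers come from the sample titles.

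Counts were fitted over all libraries with edgeR 4.0.16 in R 4.3.3 (filterByExpr, TMM, quasi-likelihood F-test, no covariates, Benjamini-Hochberg over 16241 genes, threshold 0.05). CPM were computed from TMM-scaled totals, levels per kb from GENCODE M21 exon lengths, and promoters were read from a RefSeq table of GRCm38.p6. Ratios, and relations over the 9 knockdown tumours, used log2(CPM + 0.5) with exact permutation tests (scipy 1.17.1). Replicate libraries had r of 0.938 to 0.988 and differed beyond sampling noise (chi-square per degree of freedom of at least 12.1). On simulated data for this comparison (16241 genes, 200 changed), the changed genes were drawn from those with a mean above 4 CPM. The test called, of 50 genes each, 45 at a log2 change of -2, 17 at -1, 15 at 1 and 42 at 2. It called 4 of 15813 unchanged genes. Vegfc lay below that mean over all libraries, so these rates do not cover it.

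The text names all 10 members, from each gene list the 2 risers and 2 fallers with the smallest p past the threshold (or the 2 smallest p), genes named by a defining role, Ezh2, and the 5 genes most like each member. A few genes that this rule takes are not reported here. The members and lists were chosen with earlier results of these data known. Alternatives were other scalings, no filter, DESeq2 1.42.0, limma-voom 3.58.1, other pseudocounts, 5 core endothelial markers as reference, each library left out, knockdown tumours 7 and 9 left out, and a replicate block. The restriction to libraries with Xist above 5 CPM and the gene list counts under every setting were chosen after seeing the data.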

Additional observations from a re-analysis of the deposited data

Results flagged for a closer look

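Of 20 values checked in the 9 knockdown tumours, 3 had 1 tumour far from the rest, all 3 of them levels of members in CPM. For normally distributed values chance alone sets apart about 1 in 20 such groups. That rate need not hold for CPM, which are skewed to high values, and the members were not checked as log2 levels. Vegfc stood at 4.18 CPM in knockdown tumour 6, against 2.10 CPM in the next tumour. Pgf stood at 51.2 CPM in knockdown tumour 7, against 28.6 CPM in the next. Angpt2 stood at 31.8 CPM in knockdown tumour 9, against 17.7 CPM in the next.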

How the results depend on the processing

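Flt1 kept its direction in all 20 alternatives and its call in 19 of them. The number of members called was between 1 (without control 2) and 4 when 1 library was left out in turn. Deviations of same-numbered libraries from their group means correlated at -0.151 and 0.013. The deviations of the 2 controls mirror each other by construction, so these values cannot settle whether replicate numbers pair the samples. With the replicate block on the 4 libraries numbered 1 and 2, 0 members were called (Flt1 -2.27, adjusted p = 0.054), and without the block 3 were. The relations past adjustment numbered 0, and 1 with a pseudocount of 2 (Tek with the endothelial markers, adjusted p = 0.038). Pgf changed sign with library size alone as the scaling (0.077) and ranged from -0.33 to 0.14 as libraries were left out. Angpt1 was -0.44 with the block and -0.32 in the same libraries without it. Relative to the endothelial markers, Tek ranged from -0.16 to 0.58 and Kdr from -0.78 to 0.23 with 1 library left out. Over all genes, 1290 were called without control 1, 1750 without control 2 and 734 with the block. The 2 controls limit every comparison between the groups, and with all libraries an exact permutation test between the groups cannot go below p = 0.018.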

Other observations

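Of 21 angiogenic growth factors outside the VEGF and angiopoietin families 1 rose and 7 fell (median log2 fold change -0.54), beside 10.3% higher and 13.0% lower over all genes. This median was -0.42 without control 1 and -0.22 without control 2, and fewer genes passed in either case. Pdgfc fell from 60.9 CPM in each control to 24.8 ± 8.16 CPM in the knockdown tumours (SD, n = 9; -1.29, edgeR adjusted p = 0.0069), and Pdgfa, its relative that drives glial precursors, fell by 1.35 (adjusted p = 0.012). The heparin-binding factor Ptn rose from 127.6 and 211.4 CPM to 632.7 ± 310.1 CPM (1.90, adjusted p = 0.038). Of 15 genes listed as endogenous inhibitors of vessel growth 4 fell and 1 rose, beside the same shares of all genes. The median log2 fold change of the 15 was -0.37, and it was -0.16 without control 1 and -0.23 without control 2. The matrix protein Sparc fell by 1.39 (edgeR adjusted p = 0.00054) and the chemokine Cxcl10 by 3.32 (adjusted p = 0.00027). Timp2 and Cxcl9, named after their values were seen, also fell. Vash2, on the list although it is not an established inhibitor, rose by 1.18 (edgeR adjusted p = 0.00081).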
